A study of Mus musculus with 3 samples.

Results

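Integrins and laminins, the receptors and ligands through which cells hold on to the basement membrane, were followed across wild-type (WT), Pcgf1-/- and Pcgf1-/-+Pcgf1 mouse embryonic stem (ES) cells. The genes were chosen by name alone: every integrin alpha chain (Itga), integrin beta chain (Itgb) and laminin chain (Lama, Lamb, Lamc), together with Fn1, Nid1, Nid2, Sparc and Hspg2. These names covered 42 genes of the annotation, made up of 18 integrin alpha chains, 8 integrin beta chains, 11 laminin chains and 5 other matrix genes. Of the 42, 38 were listed under their own name in at least 1 sample, 35 in all 3, among 25350 genes listed alone in all 3 samples. Lama5, Itga10, Itgam and Itgad were listed only in loci that carried the names of several genes.

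All 3 samples were C57BL/6 ES cells grown in serum with leukemia inhibitory factor on feeder fibroblasts that mitomycin-C had stopped from dividing, and the feeders are a possible source of matrix RNA. Pcgf1 encodes a core subunit of the noncanonical Polycomb complex PRC1.1. Pcgf1-/- cells carried a Cas9 deletion made with a pair of guide RNAs against exons 2 and 3 and came from a single colony, so clone and genotype cannot be told apart. Pcgf1-/-+Pcgf1 cells were the knockout cells given FLAG-tagged Pcgf1 by lentivirus. There was 1 sample of each, so no test was run, no spread between replicates was measured, and every difference compares single libraries.

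Levels were given as FPKM, the fragments of a transcript scaled to its length and to the number of fragments mapped in the library, which allows levels of different genes to be set side by side. The smallest steps of FPKM in long genes corresponded to roughly 19400000, 20800000 and 20100000 fragments in WT, Pcgf1-/- and Pcgf1-/-+Pcgf1 if 1 step is 1 fragment. The targeted gene, Pcgf1, was at 14.0 FPKM in WT, 5.88 in the knockout and 7.86 in Pcgf1-/-+Pcgf1. These are levels of listed transcripts, summed by their first or last exons. The deleted exons were not read on their own, so the values do not check the deletion. The ES cell markers had a summed level of 1906 FPKM in WT, 1889 in the knockout and 1688 in Pcgf1-/-+Pcgf1 over the 7 listed alone in every sample. Of these, Nanog was at 68.2, 46.3 and 123 FPKM, higher by more than 2-fold in Pcgf1-/-+Pcgf1 than in Pcgf1-/-.

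An integrin is a pair of 1 alpha and 1 beta chain that spans the membrane, binds matrix outside the cell and couples to actin through talin and kindlin inside it. Laminins are cross-shaped trimers of an alpha, a beta and a gamma chain. Laminin-111, made of the alpha1, beta1 and gamma1 chains, and laminin-511, made of alpha5, beta1 and gamma1, are the major laminins of the early embryo, and integrin alpha6beta1 is their main receptor on ES cells. Nidogens and perlecan tie the laminin network to type IV collagen.

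The chains of laminin-111 and laminin-511 stood highest among the laminins. Lamc1, the gamma1 chain that nearly all laminins share, was at 68.7 FPKM in WT, 51.2 in the knockout and 51.3 in Pcgf1-/-+Pcgf1. Lamb1, the beta1 chain, was at 34.7, 34.2 and 34.6 FPKM in the same order of samples. Lama1, the alpha1 chain, was at 22.9 FPKM in WT, 13.8 in the knockout and 15.4 in Pcgf1-/-+Pcgf1. The Lamb1 level was 1.51 times the Lama1 level in WT, 2.47 times in the knockout and 2.24 times in Pcgf1-/-+Pcgf1. The WT value of Lama1 came from its last exons, and from first exons Lama1 was at 15.1 FPKM in WT and the WT ratio was 2.30, so Lama1 was highest in WT on one sum and not on the other. Lama5, the alpha5 chain, was listed together with the microRNA gene Mir7005. The first exon of Lama5 carried 22.1 FPKM in WT, 27.0 in the knockout and 23.4 in Pcgf1-/-+Pcgf1, and WT had a further 7.84 FPKM from a first exon inside the gene.

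Lama3 and Lamb3, chains of the laminin of epithelial basement membranes, were present at lower levels. Lama3, the alpha3 chain, was at 6.35 FPKM in WT and 6.42 in Pcgf1-/-, all from first exons inside the gene. Of these levels, 3.97 FPKM in WT and 3.55 in Pcgf1-/- came from a first exon that ended unlike any annotated first exon. In Pcgf1-/-+Pcgf1 the Lama3 locus carried a second gene name, and its first exons, at the positions used in the other samples, summed to 9.69 FPKM. Lamb3, the beta3 chain, was at 2.12 FPKM in WT, 1.07 in the knockout and 3.33 in Pcgf1-/-+Pcgf1, lowest in the knockout. Lamb2, the beta2 chain, was at 5.84 FPKM in WT, 4.32 in the knockout and 4.57 in Pcgf1-/-+Pcgf1. Lama4, the alpha4 chain of mesenchymal and vessel laminins, was at 0.894 FPKM in WT, 0.328 in the knockout and 0.524 in Pcgf1-/-+Pcgf1, below 1 FPKM in every sample.

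Matrix proteins outside the laminin family held the highest levels of the whole group. Sparc, a collagen-binding matrix protein, ranked first in each sample with 227 FPKM in WT, 266 in the knockout and 254 in Pcgf1-/-+Pcgf1. Fn1, which encodes fibronectin, was at 110 FPKM in WT, 75.7 in the knockout and 74.9 in Pcgf1-/-+Pcgf1, so that both Pcgf1-/- lines lay below WT. Hspg2, which encodes perlecan, was at 51.9 FPKM in WT, 30.5 in the knockout and 31.9 in Pcgf1-/-+Pcgf1. Nid1, the nidogen that bridges laminin gamma1 and type IV collagen, was at 22.7 FPKM in WT, 35.1 in the knockout and 23.8 in Pcgf1-/-+Pcgf1. Nid2, the second nidogen, was at 21.5, 26.2 and 23.5 FPKM. Both nidogens were highest in the knockout, and Nid1 showed the wider range of the pair.

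**Figure D1:**
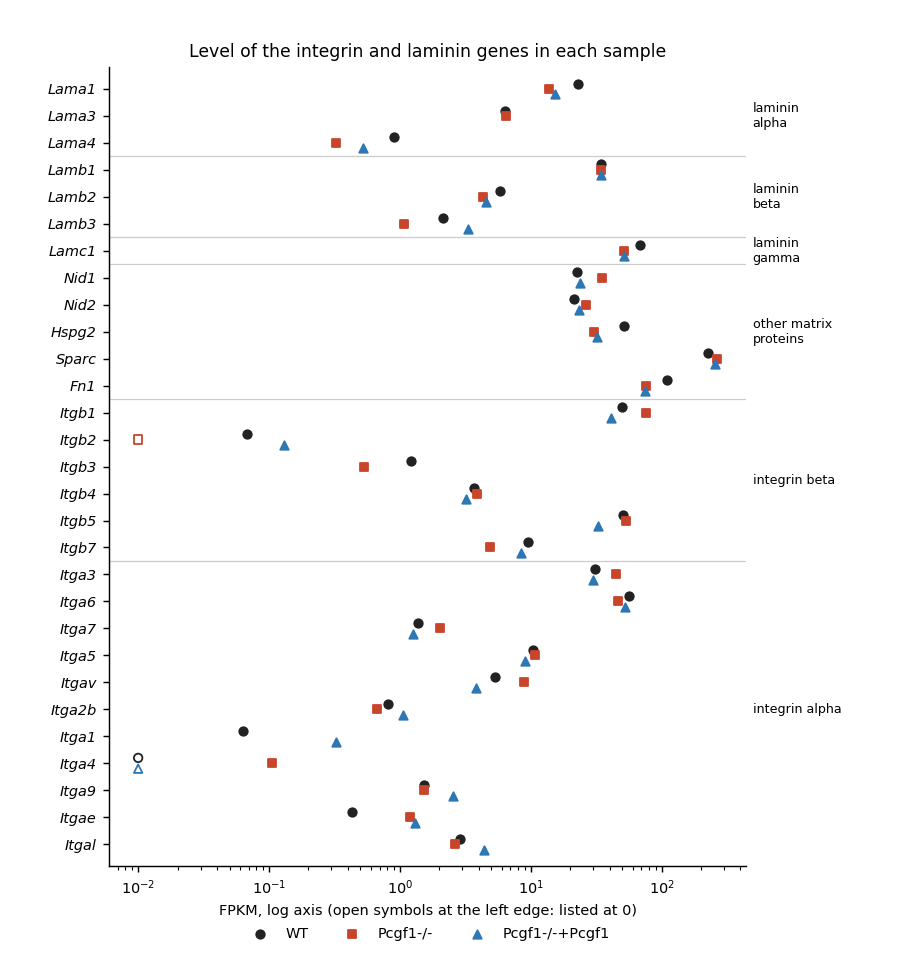
FPKM on a log axis for 29 of the 30 genes that reached 1 FPKM in a sample or passed 2-fold in a comparison, with 1 symbol for each of WT, Pcgf1-/- and Pcgf1-/-+Pcgf1 and open symbols at the left edge for values listed at 0. Lama3 and Itgb3 have no symbol for Pcgf1-/-+Pcgf1, and Itga1 has none for Pcgf1-/-, since those loci carried several gene names. Sparc lies highest at 227 to 266 FPKM, and the 3 symbols of Lamb1 lie together at 34.2 to 34.7 FPKM.

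Among the beta chains, Itgb1 and Itgb5 were the most abundant. Itgb1, the partner of most matrix-binding alpha chains, was at 50.1 FPKM in WT, 75.9 in the knockout and 40.8 in Pcgf1-/-+Pcgf1, highest in the knockout. Itgb5, which pairs with alphav and binds vitronectin, was at 51.0, 53.5 and 32.9 FPKM, lowest in Pcgf1-/-+Pcgf1. Itgb7, best known as a partner of alpha4 and alphaE on lymphocytes, was at 9.51 FPKM in WT, 4.90 in the knockout and 8.46 in Pcgf1-/-+Pcgf1. The log2 difference of Itgb7 between Pcgf1-/- and WT was -0.94, just short of 2-fold. Itgb4, the partner of alpha6 in hemidesmosomes, was at 3.71, 3.87 and 3.18 FPKM. Itgb3, which pairs with alphav and with the platelet chain alphaIIb, was at 1.21 FPKM in WT and 0.531 in Pcgf1-/-. In Pcgf1-/-+Pcgf1 Itgb3 was merged with its neighbour Myl4, and the first exon at the start of Itgb3 carried 1.48 FPKM. Itgb2, the beta chain of leukocyte integrins, was at 0.0673 FPKM in WT, listed at 0 in the knockout and at 0.129 in Pcgf1-/-+Pcgf1.

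Itga6 and Itga3, both laminin-binding, were the most abundant alpha chains. Itga6, the alpha6 chain of the main laminin receptor, was at 56.3 FPKM in WT, 46.3 in the knockout and 52.4 in Pcgf1-/-+Pcgf1. Itga3, the alpha3 chain that binds laminin-332 and laminin-511, was at 30.7, 44.5 and 29.8 FPKM, highest in the knockout. Itga7, the laminin receptor chain of muscle, was at 1.38, 2.02 and 1.27 FPKM. Itga6 stood above Itga3 in each library when all first exons were counted. From first exons upstream of the start codon the order turned, with Itga6 at 23.9, 21.5 and 24.9 FPKM and Itga3 at 30.7, 35.4 and 29.8.

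Of the alpha chains that read the Arg-Gly-Asp motif of fibronectin and vitronectin, Itga5 and Itgav were expressed. Itga5, the fibronectin receptor chain, was at 10.4 FPKM in WT, 10.9 in the knockout and 9.05 in Pcgf1-/-+Pcgf1. Itgav, the alphav chain, was at 5.35 FPKM in WT, 8.90 in the knockout and 3.80 in Pcgf1-/-+Pcgf1, highest in the knockout like Itgb1 and Itga3. Itga2b, the platelet chain alphaIIb, was at 0.811, 0.663 and 1.06 FPKM, all from a first exon inside the gene. Itga9, which binds tenascin and the EIIIA repeat of fibronectin, was at 1.52, 1.54 and 2.55 FPKM. Itga4, which binds fibronectin and VCAM-1, was listed at 0 in WT and in Pcgf1-/-+Pcgf1 and was at 0.105 FPKM in Pcgf1-/-. Itga1, a collagen receptor chain, was at 0.0630 FPKM in WT and 0.325 in Pcgf1-/-+Pcgf1, and its locus in Pcgf1-/-, which also carried the name of the overlapping gene Pelo, was at 0.337.

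Alpha chains of leukocytes were low. Itgal, the alphaL chain of LFA-1, was at 2.87 FPKM in WT, 2.62 in the knockout and 4.36 in Pcgf1-/-+Pcgf1. All of this came from a first exon inside the gene in each sample, and none from a first exon upstream of the start codon. Itgae, the alphaE chain that pairs with beta7, was at 0.433, 1.20 and 1.31 FPKM. Itgax was listed at 0 in all 3 samples. The defining leukocyte markers Cd14, Csf1r and Lyz2 were also listed at 0 in every sample and Ptprc did not exceed 0.0098 FPKM. The 8 remaining genes, Lama2, Lamc3, Itgb6, Itgb8, Itga8, Itga2, Itga11 and Itgax, all lay between 0 and 0.131 FPKM in every sample that listed them alone. Of the merged loci, Itgam reached 0.0304 FPKM and Itgad 0.0387.

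In each sample, 24 of the genes listed alone stood at 1 FPKM or more. By level, Itgb1 held rank 7 in WT, rank 2 in the knockout and rank 5 in Pcgf1-/-+Pcgf1, while Hspg2 held ranks 5, 10 and 8, or 11, 10 and 8 when only its first exons upstream of the start codon were counted. With 1 library of each kind, no neighbouring ranks can be separated by their spread.

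The forms of 4 genes are shown with their sequences, because alternative exons there decide which matrix-binding repeat or which cytoplasmic tail the protein carries. All coordinates are mm10 and the bases were taken from GENCODE transcripts. Fibronectin has the alternative repeats EIIIA and EIIIB, which are typical of embryonic and cellular fibronectin and absent from the plasma form. The 273-base EIIIB exon lies at chr1:71613763-71614035 on the minus strand and is exon 25 of the transcript used here. It is printed in capitals with 12 bases of each neighbouring exon in lower case.
Fn1 EIIIB: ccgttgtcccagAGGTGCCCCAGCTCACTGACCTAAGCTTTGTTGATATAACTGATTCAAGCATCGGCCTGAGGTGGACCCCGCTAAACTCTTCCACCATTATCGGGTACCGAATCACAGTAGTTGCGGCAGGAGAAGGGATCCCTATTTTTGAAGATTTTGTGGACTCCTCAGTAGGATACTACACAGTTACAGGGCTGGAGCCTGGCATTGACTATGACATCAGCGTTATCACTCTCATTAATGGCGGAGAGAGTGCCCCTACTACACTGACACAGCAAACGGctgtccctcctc

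The EIIIB exon was included in 100% of Fn1 FPKM in WT and in Pcgf1-/-+Pcgf1. In Pcgf1-/-, 57.9 FPKM included it and 17.8 FPKM left it out, so that 76.5% carried it. The EIIIA exon, 270 bases at chr1:71603660-71603929, was included in every listed form in all 3 samples. The longest version of the variable region exon, 467 bases, likewise carried the whole Fn1 level of 110, 75.7 and 74.9 FPKM, and the shorter versions of 392 and 107 bases were listed at 0. The EIIIB exon was therefore the 1 place of these where a second Fn1 form appeared, and it appeared in 1 library.

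Integrin alpha6 and alpha3 each have a tail A and a tail B, depending on whether an exon with its own stop codon is kept. The coding part of these exons is printed up to the stop codon, which is in capitals. The A exon of Itga6 has its coding part at chr2:71853534-71853641 and its B end lies at chr2:71855854-71856015, both on the plus strand. The A exon of Itga3 has its coding part at chr11:95046480-95046590 and the B end lies at chr11:95045608-95045763, both on the minus strand.
Itga6 tail A: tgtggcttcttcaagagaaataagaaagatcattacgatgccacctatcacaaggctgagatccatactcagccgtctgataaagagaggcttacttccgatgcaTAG
Itga6 tail B: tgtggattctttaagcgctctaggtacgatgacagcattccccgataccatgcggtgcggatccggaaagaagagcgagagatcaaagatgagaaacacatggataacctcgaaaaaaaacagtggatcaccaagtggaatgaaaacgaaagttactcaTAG
Itga3 tail A: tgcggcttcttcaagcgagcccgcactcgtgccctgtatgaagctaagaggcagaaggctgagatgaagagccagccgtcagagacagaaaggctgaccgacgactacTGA
Itga3 tail B: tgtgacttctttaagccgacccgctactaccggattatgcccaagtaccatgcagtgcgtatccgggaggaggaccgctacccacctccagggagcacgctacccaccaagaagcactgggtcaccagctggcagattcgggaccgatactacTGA

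The A exon of Itga6 was left out of all 56.3 FPKM in WT, all 46.3 in the knockout and all 52.4 in Pcgf1-/-+Pcgf1, so only the alpha6B form was listed. The A exon of Itga3 was included in all 30.7, 44.5 and 29.8 FPKM, so only the alpha3A form was listed. The listed transcripts of Itga6 and Itga3 thus had opposite tail types, B for alpha6 and A for alpha3, and this held in all 3 libraries. For Itga6, 32.4, 24.8 and 27.5 FPKM of these levels began at a first exon inside the gene. Its last exons were listed at 0 in all 3 samples, so the B end had no level of its own.

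Itgb1 has the same kind of choice between the common tail A and the tail D of striated muscle. The coding part of the D exon lies at chr8:128726983-128727057 and that of the A end at chr8:128732023-128732088, both on the plus strand. The stop codon is in capitals.
Itgb1 tail D: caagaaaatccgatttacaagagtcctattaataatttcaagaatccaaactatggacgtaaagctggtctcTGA
Itgb1 tail A: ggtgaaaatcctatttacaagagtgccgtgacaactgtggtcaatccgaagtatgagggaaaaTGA

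The D exon was left out of all 50.1 FPKM in WT, 75.9 in the knockout and 40.8 in Pcgf1-/-+Pcgf1, which leaves the tail A. The higher Itgb1 level in Pcgf1-/- was thus a level of the same tail form. Of 37 skipping and retained intron events listed for the genes, 15 had at least 1 FPKM in each sample, and 3 of these had both forms above 0 in a sample. Besides EIIIB, both others were in Itgb4. A 159-base exon at chr11:116005897-116006055 was included in 24.0% of Itgb4 FPKM in WT, 21.8% in the knockout and 23.0% in Pcgf1-/-+Pcgf1. A 195-base exon at chr11:116004904-116005098 was included in 22.6% in WT, or 0.840 FPKM, and in none in the other samples. Its level in WT equals that of an Itgb4 first exon inside the gene, at chr11:115992932-115993203, in the same sample. Alternative exon ends were listed apart from these events. The 155-base version of an Hspg2 exon, at chr4:137540195-137540349, was at 14.9 FPKM in WT, 27.0 in the knockout and 12.9 in Pcgf1-/-+Pcgf1. Its 137-base version was at 18.3, 3.50 and 19.0 FPKM. A Lama1 exon had versions of 136 and 94 bases, listed in WT alone at 15.1 and 7.85 FPKM. These differences were not tested.

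**Figure D2:**
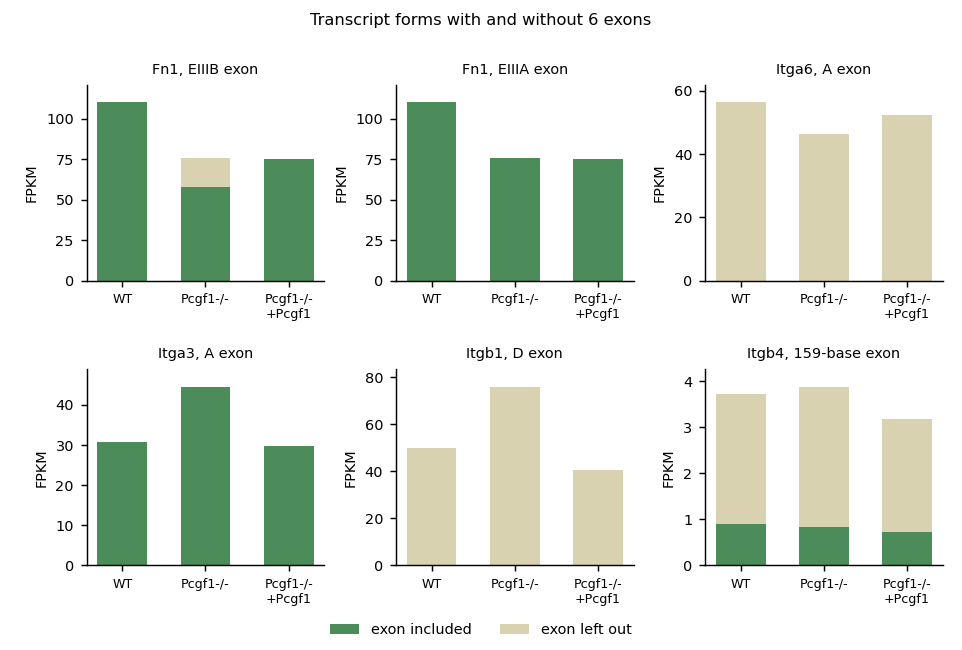
FPKM of transcript forms that include an exon (green) or leave it out (beige), stacked for each sample, for 6 exons of Fn1, Itga6, Itga3, Itgb1 and Itgb4. A beige part of 17.8 FPKM stands on the EIIIB bar of Pcgf1-/- alone, whereas the Itga6 A and Itgb1 D bars are beige and the Itga3 A bars green throughout.

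The question of the first comparison was which genes depend on Pcgf1 in undifferentiated ES cells. Between Pcgf1-/- and WT, 37 of the genes could be compared, with 0.1 FPKM added to each value before the ratio. Itgb3 and Lama4 were lower in Pcgf1-/- by more than 2-fold, and Itga4 and Itgae were higher. This made 2 of 37 lower (5.41%) against 5.08% of all 25613 genes, and 2 of 37 higher (5.41%) against 2.16% of all genes. Counting both directions, 4 of 37 (10.8%) passed 2-fold against 7.23% of all genes.

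All 4 genes past 2-fold were at low levels. Lama4 (chr10:38965515-39110188) had a log2 difference of -1.22, from levels worth about 105 fragments in WT and 41 in Pcgf1-/-. Itgb3 (chr11:104608000-104670476) had a log2 difference of -1.05, and with median-of-ratios scaling it was -0.96 and no longer past 2-fold. Itgae (chr11:73090583-73147446) had a log2 difference of 1.28, which depended on how its rows were summed. Its first exons summed to 0.433 FPKM in WT and 0.0343 in Pcgf1-/-, whereas its last exons summed to 0.322 and 1.20. From first exons alone the log2 difference of Itgae was -1.99, of the opposite sign. Itga4 was listed at 0 in WT, so it has no fold.

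The abundant genes stayed within 2-fold. Of the 22 genes with a mean of at least 1 FPKM, 0 passed 2-fold in Pcgf1-/- against WT, beside 7.77% of the 9250 genes of that level. The median log2 difference of the 22 was 0.04, with 10 below 0 and 12 above. That of all 9250 was -0.09, with 5578 below 0 and 3663 above. On the log2 scale, Itgav was higher in Pcgf1-/- by 0.72, Nid1 by 0.63, Itgb1 by 0.60, Itga3 by 0.53 and Itga7 by 0.52, the last with the opposite sign from first exons. Hspg2 had -0.76, with the opposite sign from upstream first exons, Lama1 -0.72, Fn1 -0.54 and Lamc1 -0.43. The median-of-ratios scaling would add about 0.11 to each of these log2 differences.

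**Figure D3:**
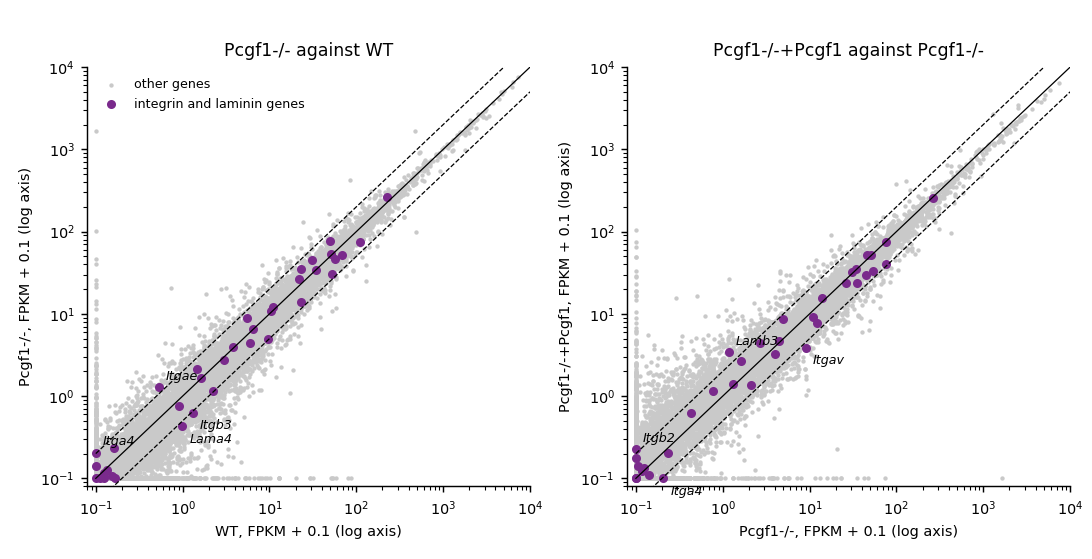
FPKM plus 0.1 of each gene in Pcgf1-/- against WT (left) and in Pcgf1-/-+Pcgf1 against Pcgf1-/- (right), on log axes, with the integrin and laminin genes in purple, other genes in grey, and dashed lines at 2-fold. Only 4 purple points lie outside the dashed lines in each panel, and all are named.

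For Hspg2 and some other genes the values depended on which first exons were counted. In 11 of the genes, first exons inside the gene, downstream of the start codon of the principal transcript, carried 1 FPKM or more in a sample. Hspg2 had 21.9 FPKM from first exons upstream of the start codon in WT and 30.0 from inside the gene, while Pcgf1-/- had 30.5 and Pcgf1-/-+Pcgf1 31.9, all from upstream. From upstream first exons the log2 difference of Hspg2 was 0.48 in Pcgf1-/- against WT in place of -0.76. Both internal first exons of Hspg2 in WT, at chr4:137535707-137535730 and chr4:137550594-137550946, ended unlike any annotated first exon. The direction of Hspg2 therefore turned with the choice of starts. Its last exons summed to 51.9, 30.5 and 31.9 FPKM, the same as all its first exons together.

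Itgb5 and Itgav had the same kind of split in WT. Itgb5 had 34.2 FPKM from upstream first exons in WT and 16.8 from inside, against 53.5 and 0 in Pcgf1-/- and 28.1 and 4.78 in Pcgf1-/-+Pcgf1. Itgav had 3.88 FPKM from upstream in WT and 1.47 from inside, against 8.90 in the knockout and 3.80 in Pcgf1-/-+Pcgf1 from upstream alone. From upstream first exons Itgav passed 2-fold in Pcgf1-/- against WT, with a log2 difference of 1.18. Fn1 had 18.2 FPKM from inside in Pcgf1-/-+Pcgf1 and none in the other samples. Itga6 had 23.9, 21.5 and 24.9 FPKM from upstream and 32.4, 24.8 and 27.5 from an annotated first exon inside the gene, so the share from inside was 57.5%, 53.6% and 52.5%. The last exons of Itga6 were listed at 0 in all 3 samples.

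Lama1 and Lamc1 differed between sums of first and of last exons. The first exons of Lama1 summed to 15.1 FPKM in WT, 13.8 in the knockout and 15.4 in Pcgf1-/-+Pcgf1, nearly level, and the higher WT value of 22.9 came from its last exons. Those of Lamc1 summed to 47.7, 37.5 and 40.2 FPKM, with WT highest on either sum. Itga7 in Pcgf1-/- had 1.12 FPKM in first exons and 2.02 in last exons, and from first exons it lay below the 1.38 FPKM of WT, the opposite direction. Itga3 in Pcgf1-/- had 35.4 FPKM in first exons and 44.5 in last exons, above WT on either sum. Lamb3 was read from first exons alone, since its last exons were listed at 0 in all 3 samples. Both sums were equal within 0.001 FPKM in each sample for 21 of the 35 genes listed in all 3.

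**Figure D4:**
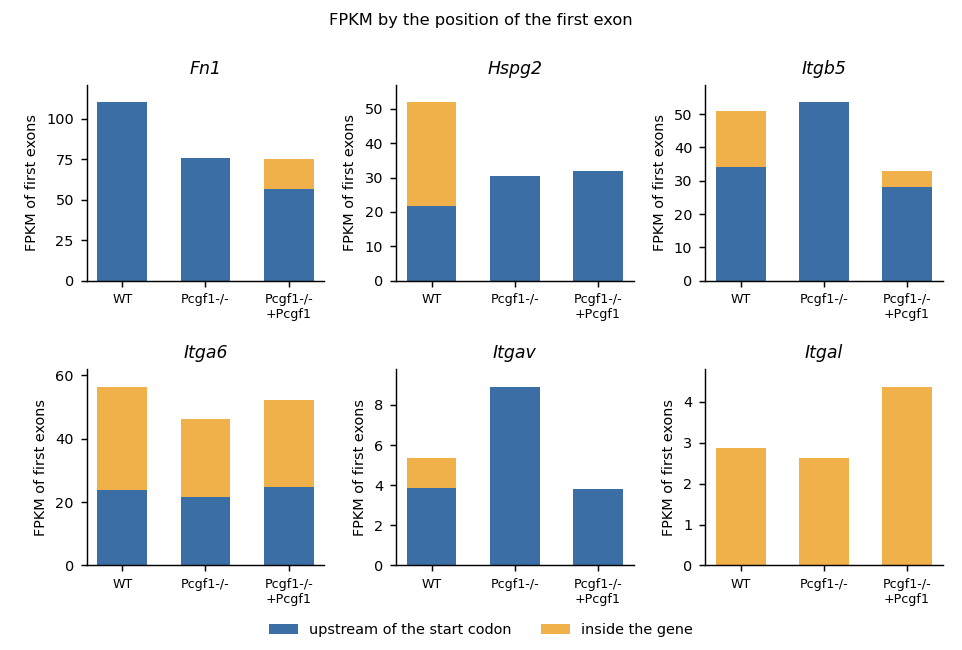
FPKM of first exons that begin upstream of the start codon (blue) and inside the gene (orange), stacked for each sample, in 6 genes. Hspg2 has 21.9 FPKM in blue and 30.0 in orange in WT and only blue in both other samples, and Itgal has only orange.

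Re-expression of Pcgf1 was compared next with the knockout, a comparison that shares the Pcgf1-/- library with the first. Of 35 genes compared, Itga4 and Itgav were lower by more than 2-fold in Pcgf1-/-+Pcgf1 and Itgb2 and Lamb3 were higher. The 2 lower genes made 5.71% against 2.23% of all 25595 genes, and the 2 higher genes 5.71% against 6.38%. In both directions 4 of 35 (11.4%) passed 2-fold, against 8.62% of all genes. Itgav (chr2:83724397-83806916) had a log2 difference of -1.21 and Lamb3 (chr1:193207699-193343878) of 1.55. Itgb2 was listed at 0 in Pcgf1-/- and Itga4 in Pcgf1-/-+Pcgf1, and neither has a fold.

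The values of the abundant genes in both comparisons, Pcgf1-/- against WT and then Pcgf1-/-+Pcgf1 against Pcgf1-/-, are set side by side here as log2 differences. Itgb1 had 0.60 and then -0.90, Itga3 0.53 and -0.58, Nid1 0.63 and -0.56, and Itga7 0.52 and -0.63, though Itga7 changed sign in both with first exons alone. For these 4 genes Pcgf1-/-+Pcgf1 lay within 0.30 of WT on the log2 scale. Itgav had 0.72 and -1.21, and -0.48 in Pcgf1-/-+Pcgf1 against WT. From upstream first exons that last value of Itgav was -0.03. Itgb7 had -0.94 and 0.77, and Lamb3 -0.93 and 1.55. In Pcgf1-/-+Pcgf1 against WT, Itgb7 had -0.17 and Lamb3 0.63. Fn1 had -0.54 and -0.01, Hspg2 -0.76 and 0.06, Lamc1 -0.43 and 0.00, and Lama1 -0.72 and 0.16. In Fn1 and Lamc1 the value of Pcgf1-/-+Pcgf1 was nearer to Pcgf1-/- than to WT. For Hspg2 and Lama1 this turned on the rows used: from upstream first exons Hspg2 had 0.48 in Pcgf1-/- against WT, and from first exons Lama1 in Pcgf1-/-+Pcgf1 differed from WT by 0.03. Itgb5 had 0.07 and -0.70, and from upstream first exons 0.64 and -0.93. Both comparisons use the 1 Pcgf1-/- library, and the difference between them was not tested.

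Against WT, 36 genes were compared in Pcgf1-/-+Pcgf1, and this comparison shares a library with each of the others. None was lower by more than 2-fold, against 2.38% of all 25580 genes, and Itga1 and Itgae were higher, 5.56% against 3.96%. Both directions gave the same 2 of 36 against 6.34% of all genes. Itga1 (chr13:114953096-115101964) had a log2 difference of 1.38, from about 13 fragments in WT and 72 in Pcgf1-/-+Pcgf1. Itgae had 1.40, and -0.58 from first exons upstream of the start codon, the opposite sign. Of the 22 genes with a mean of at least 1 FPKM, 16 were below WT and 6 above. Of all 9250 genes of that level, 5999 were below WT and 3238 above. The median log2 difference was -0.18 for the 22 and -0.11 for the 9250.

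**Figure D5:**
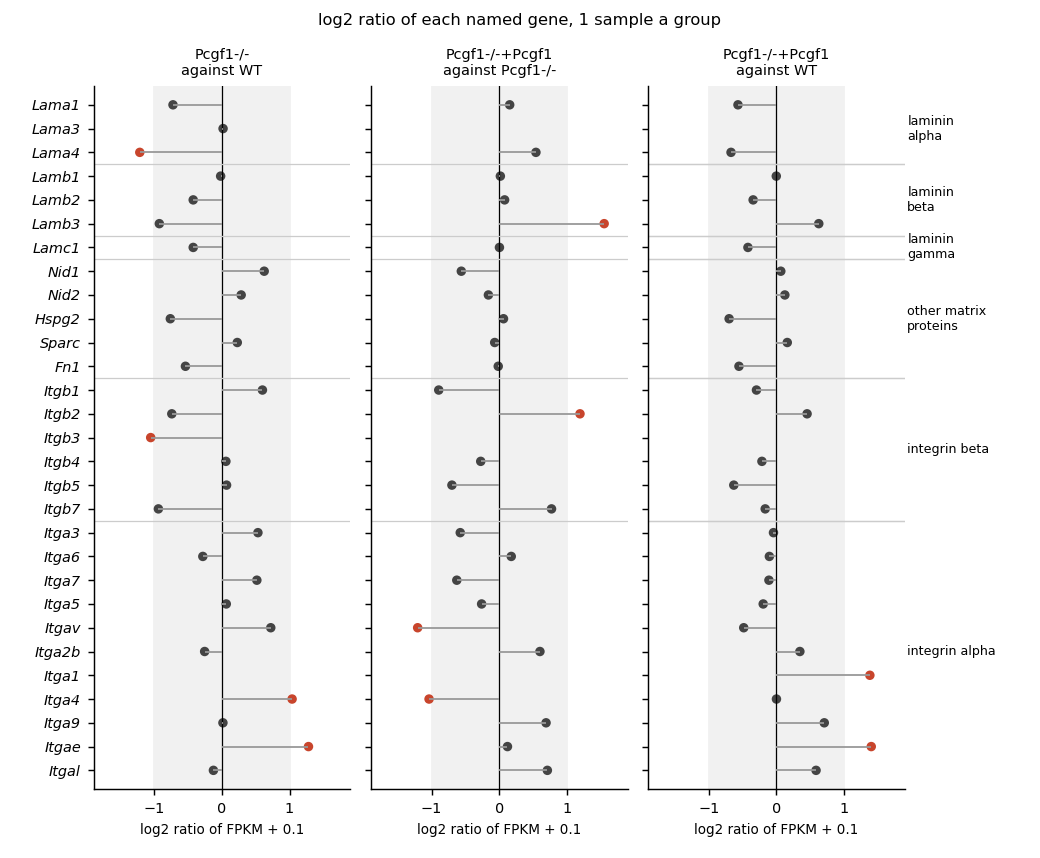
log2 ratio of FPKM plus 0.1 for 29 of the 30 named genes in the 3 comparisons, with the grey band spanning 2-fold in either direction and red points outside it. Red points number 4, 4 and 2 from left to right, and Itgb1, Itga3, Nid1 and Itga7 point right in the first panel and left in the second.

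Genes that work with integrins on the inner side of the membrane were listed as a group of 27, among them talins, kindlins, parvins and the ILK complex. Between Pcgf1-/- and WT 1 of 26 was lower by more than 2-fold and 0 were higher, beside 5.08% and 2.16% of all genes, with a median log2 difference of 0.04. The lower gene, Parvg, was at 0.102 FPKM in WT and listed at 0 in Pcgf1-/-. Ilk, the kinase-like scaffold of the complex, was at 12.3, 17.7 and 11.7 FPKM, and Parva, its parvin partner, at 3.09, 4.55 and 2.66. In Pcgf1-/-+Pcgf1 against Pcgf1-/-, 0 of 26 were lower and 1, Parvg, was higher, beside 2.23% and 6.38% of all genes. Against WT, 0 of 27 were lower and 1, Lims2, was higher, beside 2.38% and 3.96% of all genes. Lims2 was at 0.146 FPKM in WT and 0.429 in Pcgf1-/-+Pcgf1. Tln1, which encodes talin 1, was at 24.99 FPKM in WT, 28.2 in the knockout and 24.4 in Pcgf1-/-+Pcgf1, and Fermt2, which encodes kindlin 2, at 24.6, 33.3 and 21.7. Flna, which encodes the actin crosslinker filamin A, was at 68.7, 46.5 and 53.9 FPKM and Tln2, which encodes talin 2, at 6.82, 4.57 and 5.42, both lowest in the knockout.

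Other matrix ligands and basement membrane genes formed a list of 28, of which 24 could be compared. Col4a1 and Col4a2, the chains of the type IV collagen network to which nidogens bind, were higher by more than 2-fold in Pcgf1-/- than in WT. Col4a1 was at 9.74 FPKM in WT, 24.0 in the knockout and 7.15 in Pcgf1-/-+Pcgf1. Col4a2 was at 5.36, 11.2 and 2.95 FPKM. Both were lowest in Pcgf1-/-+Pcgf1, and both passed 2-fold there against Pcgf1-/-. Frem1, a Fraser complex gene, was lower in Pcgf1-/-, at 0.159 and 0.0137 FPKM in WT and Pcgf1-/-. This made 1 lower and 2 higher of 24, beside 5.08% and 2.16% of all genes, with a median log2 difference of -0.07. Against Pcgf1-/-, 4 were lower and 2 higher in Pcgf1-/-+Pcgf1, beside 2.23% and 6.38% of all genes, and against WT 2 were lower and 1 higher, beside 2.38% and 3.96%.

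Markers of other cells were read beside these results. Of 21 fibroblast markers, which feeder cells would bring, 6 were lower by more than 2-fold in Pcgf1-/- than in WT and 0 were higher. This stood beside 5.08% and 2.16% of all genes, and 15 did not pass. In Pcgf1-/-+Pcgf1 against Pcgf1-/-, 1 of the 21 was lower and 7 were higher, beside 2.23% and 6.38% of all genes. Against WT, 2 were lower and 3 higher in Pcgf1-/-+Pcgf1, beside 2.38% and 3.96%. The summed level of the 21 markers was 80.6 FPKM in WT, 38.5 in the knockout and 67.7 in Pcgf1-/-+Pcgf1. The larger part of it was Fstl1 at 49.9, 19.7 and 36.2 FPKM. Dcn was at 0.352, 0.779 and 1.18 FPKM and Twist1 at 2.09, 3.19 and 0.763, with the knockout above WT in both. Col1a1 was at 1.88, 0.390 and 2.21 FPKM and Thy1 at 14.2, 6.39 and 13.5, whereas Postn and Fap were listed at 0 in all 3. The integrin and laminin genes went both ways. Among those lower in Pcgf1-/- than in WT were Fn1, Hspg2, Lama1, Lama4, Lamb3 and Itgb7, and among those higher were Sparc, Nid1, Itgb1 and Itgav. Of the 37 integrin and laminin genes compared, 19 were below WT and 17 above, beside 8428 below and 5203 above of all 25613 genes. Fn1 was at 110, 75.7 and 74.9 FPKM. The part of feeder RNA in these genes was not tested. In bulk RNA, fewer fibroblasts and less RNA per fibroblast cannot be told apart. Primitive and parietal endoderm markers summed to 12.5, 11.8 and 14.1 FPKM, with 0 lower and 2 higher of 10 in Pcgf1-/- against WT, namely Gata6 and Sox7. Gata6 was at 0.136, 0.410 and 0.129 FPKM and Sox7 at 0.144, 0.414 and 0.648, and their part in the levels of Lama1, Col4a1 and Sparc was not tested. Endothelial markers summed to 29.6, 20.7 and 26.6 FPKM, with 2 of 6 lower in Pcgf1-/-, Kdr and Tek. Leukocyte and platelet markers summed to 31.5, 28.2 and 20.0 FPKM, nearly all of it Cd68, with 1 of 9 lower in Pcgf1-/-, Cd3e.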

How the data were processed

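RNA-seq of 3 mouse ES cell samples, 1 per group, was analysed. The authors enriched poly-A RNA, sequenced it as paired ends on a HiSeq X-Ten and mapped the reads to mm10. The submitters' processing notes name TopHat2 2.0.12, Cufflinks 2.2.1 and HTSeq 0.6.0. Transcript events with an FPKM each were deposited by the authors, 1 list per sample, in which first exons (TSS) and last exons (TTS) of a gene have rows of their own. The program that wrote the lists is not given in the sources used here. No read counts were used, so the depth is known only roughly and no count test was run.

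A gene's level was the larger of its summed TSS and summed TTS FPKM, over rows that named that gene alone. Ratios were taken on FPKM plus 0.1, with a limit of 2-fold. FPKM were not rescaled. An exon event was kept if its 2 forms totalled 1 FPKM or more in each sample. Genes were named with values if they reached 1 FPKM in a sample or passed 2-fold. The values of 1 such gene are not reported here, though it stayed in the counts and medians. Start codons, exons and sequences came from GENCODE M21 (GRCm38, the same build as mm10). The genes and the marker and partner lists were chosen with earlier results of these data known. The functions were tested on simulated data. Python 3.11.15, numpy 2.4.6, pandas 2.3.3 and matplotlib 3.10.9 were used. Alternatives were other pseudocounts, a filter on low values, TSS or TTS rows alone, scaling and loci of several names. The use of upstream first exons alone and the removal of genes listed at 0 were added after the data had been seen.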

Additional observations from a re-analysis of the deposited data

Results flagged for a closer look

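Transcript forms that were listed at 0 in WT and at 1 FPKM or more in another sample were looked for among the exon events and alternative exon ends, outside the summed gene levels. There were 2. The Fn1 form without the EIIIB exon was at 17.8 FPKM in Pcgf1-/- and listed at 0 in WT and in Pcgf1-/-+Pcgf1. A shorter version of an Itgb5 exon, 138 bases at chr16:33947715-33947852, was at 4.78 FPKM in Pcgf1-/-+Pcgf1 and listed at 0 in WT and in Pcgf1-/-. Its level equals that of the Itgb5 first exon inside the gene in the same sample. Each rests on 1 library, and neither was tested.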

How the results depend on the processing

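The counts of genes past 2-fold were small and moved easily. They cover the integrin and laminin genes only. The share of all genes past 2-fold was not taken under the changed settings, so the moved counts cannot be set against it. In Pcgf1-/- against WT, the 2 lower genes became 6 with a pseudocount of 0.01 FPKM, 0 with a pseudocount of 1 FPKM, 1 with genes of at least 1 FPKM only and 1 with median-of-ratios scaling. The 2 higher genes became 0 with a pseudocount of 1, 1 with the level filter, 1 with TSS rows alone, 4 with TTS rows alone and 1 without genes listed at 0. In Pcgf1-/-+Pcgf1 against Pcgf1-/-, the 2 lower genes became 1 with a pseudocount of 1, with the level filter and without genes listed at 0. The 2 higher genes became 4 with a pseudocount of 0.01 and 1 with a pseudocount of 1, with the level filter, with TTS rows alone and without genes listed at 0. In Pcgf1-/-+Pcgf1 against WT, the 0 lower genes became 1 with a pseudocount of 0.01 and 1 with TSS rows alone, and the 2 higher genes became 4 with a pseudocount of 0.01, 4 with TTS rows alone, 0 with a pseudocount of 1, 1 with the level filter and 1 with upstream first exons alone. Counting loci of several names moved no count by more than 1.5 times. Itgae reversed in Pcgf1-/- against WT, to a log2 difference of -1.99 with TSS rows alone and -1.99 with upstream first exons alone, and in Pcgf1-/-+Pcgf1 against WT to -0.58 with upstream first exons alone, since its first and last exons carried different levels.

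No paired analysis was possible because each group held 1 sample, and for the same reason no replicate was left out. Levels near 0.1 FPKM rest on few fragments, about 21 for Itga4 in Pcgf1-/- and 8 for Itgb2 in Pcgf1-/-+Pcgf1. Whether the forms and starts listed in 1 sample reflect its RNA or the assembly of its transcripts was not tested.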
